A study of Mus musculus with 6 samples.

Results

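Transcripts of 10 tetraspanins (Cd9, Cd81, Cd63, Cd82, Cd151, Cd53, Cd37, Tspan3, Tspan4 and Tspan11) were measured in inguinal white adipose tissue (iWAT) of young and aged mice during cold exposure. The members were the rows of the count tables whose gene symbol was on this list, 10 of 31053 genes, and all 10 were found in every library. The measure was single-cell RNA sequencing of stromal vascular cells, the non-adipocyte cells left after collagenase digestion of the fat pad, sorted as live cells with CD45+ (immune) cells sorted out.

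There were 6 libraries of male C57BL/6 mice, 1 for each age and temperature group. Young mice were 9 weeks and aged mice 57 weeks old, and every group, controls included, had first been housed for 3 weeks at 30 °C, which is thermoneutral (TN) for mice. TN mice then stayed at 30 °C, 3D cold mice spent the last 3 days at 6 °C, and 14D cold mice spent 14 days at 6 °C. The mice came from either of 2 suppliers, the supplier and the number of mice behind each library were not given in the sources used here, and p-values therefore measure only the spread between libraries, in which the 3 temperature groups of an age stand in for its replicates. Supplier and age cannot be told apart here.

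Tetraspanins are small proteins that cross the plasma membrane in 4 passes and have a short and a long extracellular loop. They bind each other, integrins and immunoglobulin-family partners laterally, and so organise membrane patches that take part in adhesion, migration, receptor traffic, membrane fusion and the release of extracellular vesicles. In adipose tissue, CD9 has been used to mark fibrogenic progenitor cells and CD81 to mark progenitors of beige adipocytes.

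The libraries held 52068837 to 88508349 unique molecular identifiers (UMIs), tags that each stand for 1 captured transcript, and 57326 of 68103 barcodes were kept as cells. Aged 14D cold stood apart, with a median of 2588 UMIs per barcode against 6232 to 8954 in the other 5 libraries, and it gave 3782 of the 4794 cells of a shallow cluster (median 1426 UMIs) that was left unnamed. Any pair of libraries shared 18 to 35 cell barcodes. Clusters were made without any tetraspanin and named from marker genes, which gave 3 classes of adipose stem and progenitor cells (ASPCs): 21479 Dpp4+ fibroblasts, with 10 of 10 markers in each of their 3 clusters, 13107 Icam1+ preadipocytes, with 9 of 10, and 5528 Cd142+ fibroblasts, with 9 of 10. The other tested classes were 4494 endothelial cells and 1358 SMC/pericytes (smooth muscle cells and pericytes), each with 9 of 10 markers. There were also 354 Schwann cells and 329 immune cells, too few per library for a test, and 10677 cells in 2 unnamed clusters. Levels are given in CPM, the summed UMIs of a gene in a class scaled to a common total with edgeR's TMM factors. These factors were set in each class separately, so levels between classes are given in plain CPM, which uses no factors. UMIs were counted at the 3′ end and levels of different genes were not compared.

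The genes called for age in several classes and the gene called for temperature in the 3 ASPC classes are shown first with the 250 bases before their most upstream start in RefSeq (GRCm38.p6), so that the members that moved can be read side by side. These are Cd9 at chr6:125494761-125495010 (minus strand), Cd82 at chr2:93462951-93463200 (minus strand), Tspan11 at chr6:127887372-127887621 (plus strand) and Tspan4 at chr7:141474986-141475235 (plus strand), each written 5′ to 3′ on the strand of its gene. The GENCODE span of Cd9, Cd82 and Tspan11 begins inside these windows. Capitals mark GC boxes, the letters GGGCGG on either strand.
Cd9: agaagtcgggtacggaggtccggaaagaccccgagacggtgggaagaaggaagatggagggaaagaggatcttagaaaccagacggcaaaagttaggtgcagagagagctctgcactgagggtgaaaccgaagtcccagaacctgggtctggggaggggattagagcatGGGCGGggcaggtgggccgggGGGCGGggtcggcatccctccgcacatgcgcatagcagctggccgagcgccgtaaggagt
Cd82: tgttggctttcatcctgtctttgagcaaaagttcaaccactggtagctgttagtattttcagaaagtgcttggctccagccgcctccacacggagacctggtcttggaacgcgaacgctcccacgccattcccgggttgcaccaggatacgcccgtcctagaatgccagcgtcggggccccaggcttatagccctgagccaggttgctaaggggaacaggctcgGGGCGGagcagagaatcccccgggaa
Tspan11: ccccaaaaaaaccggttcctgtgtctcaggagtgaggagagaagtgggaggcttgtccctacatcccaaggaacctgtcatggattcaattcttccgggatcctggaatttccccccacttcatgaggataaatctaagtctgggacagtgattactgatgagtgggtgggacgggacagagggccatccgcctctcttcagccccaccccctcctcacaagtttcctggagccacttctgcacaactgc
Tspan4: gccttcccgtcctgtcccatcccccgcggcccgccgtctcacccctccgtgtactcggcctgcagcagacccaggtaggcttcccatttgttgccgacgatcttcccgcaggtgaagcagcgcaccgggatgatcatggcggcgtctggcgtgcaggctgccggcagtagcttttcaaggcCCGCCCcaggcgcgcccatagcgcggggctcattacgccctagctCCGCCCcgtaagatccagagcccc
The windows of Cd9 and Tspan4 each held 2 GC boxes, that of Cd82 held 1, and that of Tspan11 held 0, where 32.7% of 32851 promoter windows of the same length held at least 1. Cd9 had 16 CpG dinucleotides, Cd82 14, Tspan4 24 and Tspan11 4, beside a median of 6 over all windows. A CCAAT box (CCAAT, in 33.8% of windows), a TATA box (TATAAA, in 12.4%) and an AP-1 motif (TGANTCA, in 6.75%), searched on both strands, were found in 0 of these 4 windows. A match, or the lack of one, describes these windows alone.

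Across cell populations the members fell into broad and restricted patterns. Cd81, Cd63, Cd151, Tspan3 and Tspan4 were found in every population, while Cd53 and Cd37 were nearly confined to the small immune cluster and Tspan11 was highest in Cd142+ fibroblasts. Cd9 was highest in Schwann cells, at 2199 ± 293 (SD, n = 3 libraries) plain CPM in young and 2412 ± 274 in aged mice. After every cell was thinned to 2000 UMIs, 38.3% to 58.8% of Schwann cells had 3 or more Cd9 UMIs, beside 0.221% to 14.8% in the 5 tested classes. The Schwann cluster was mixed: it also held 6 of 10 Cd142+ markers, and when its 354 cells were gated by markers cell by cell, 136 passed as Schwann cells, 116 as Cd142+ fibroblasts and 95 as no class.

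**Figure D1:**
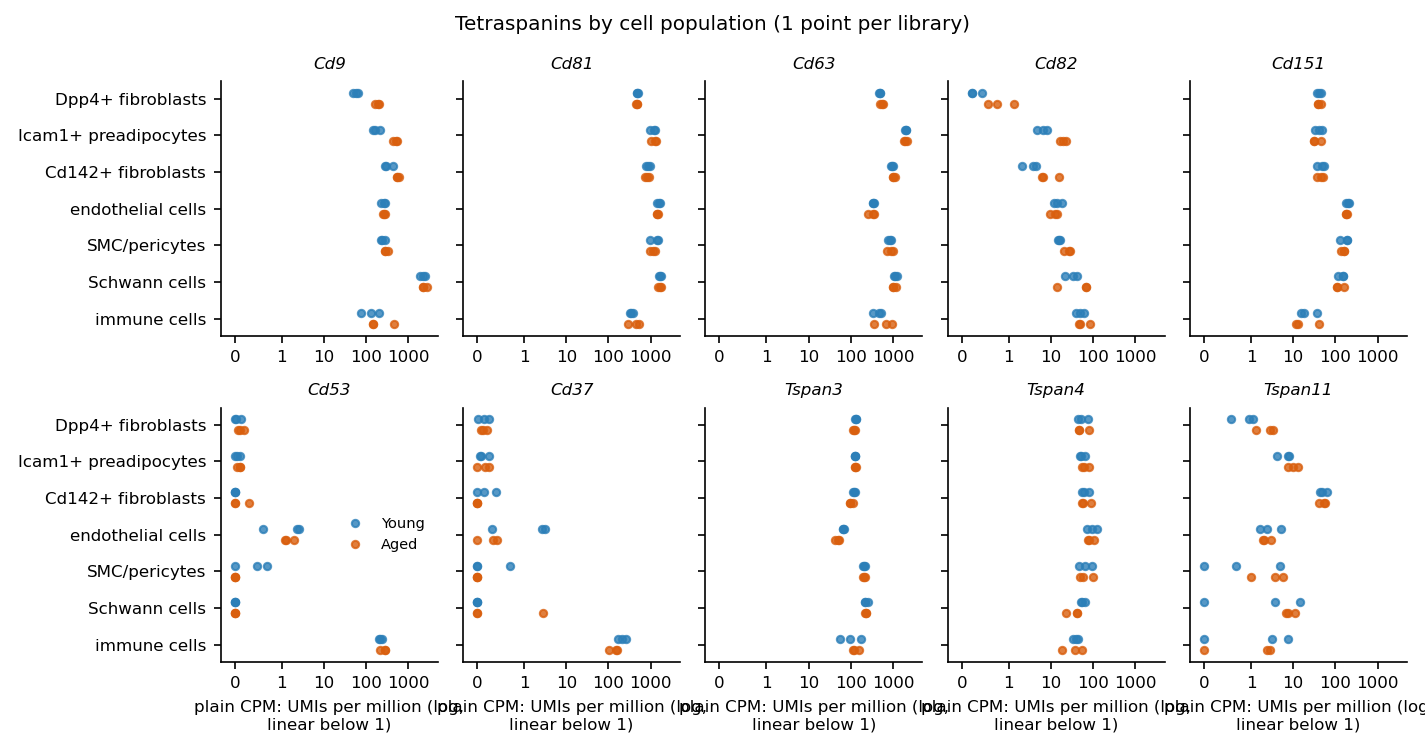
plain CPM of each of the 10 tetraspanins (x axis, logarithmic and linear below 1) in 7 cell populations (y axis), with 1 point per library and young and aged libraries in different colours. Young and aged points are separate, among others, for Cd9 in the 3 ASPC classes and for Cd82 in Icam1+ preadipocytes, Cd142+ fibroblasts and SMC/pericytes. Cd53 and Cd37 reach above 100 plain CPM in immune cells alone, and Tspan11 is highest in Cd142+ fibroblasts.

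Age was tested in each class over all genes by the quasi-likelihood test of edgeR, in a model that also held temperature. Of 50 pairs of a member and a class, 38 had enough counts to be tested, and 8 were higher in aged mice and 0 lower at an adjusted p under 0.05. These were Cd9 and Cd82 in all 3 ASPC classes and Tspan11 in Dpp4+ fibroblasts and Icam1+ preadipocytes. In Dpp4+ fibroblasts 3 of 8 tested members were higher, where 9.08% of 13079 genes were higher and 8.53% lower. In Icam1+ preadipocytes 3 of 8 were higher, where 7.13% of 12499 genes were higher and 5.48% lower. In Cd142+ fibroblasts 2 of 8 were higher, where 5.26% of 11272 genes were higher and 5.16% lower. In endothelial cells 0 of 7 were called, where 0.677% of 11085 genes were higher and 1.11% lower, and in SMC/pericytes 0 of 7, where 0.0729% of 9608 genes were higher and 0.0937% lower. Since few genes at all were called in the last 2 classes, a member that missed the threshold there is not shown to be equal between ages. The median log2 fold change of the tested members was 0.06, 0.15 and 0.04 in the 3 ASPC classes in the same order, beside medians of all genes of 0.006, -0.003 and -1.7e-05, so most members lay close to the middle of all genes.

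**Figure D2:**
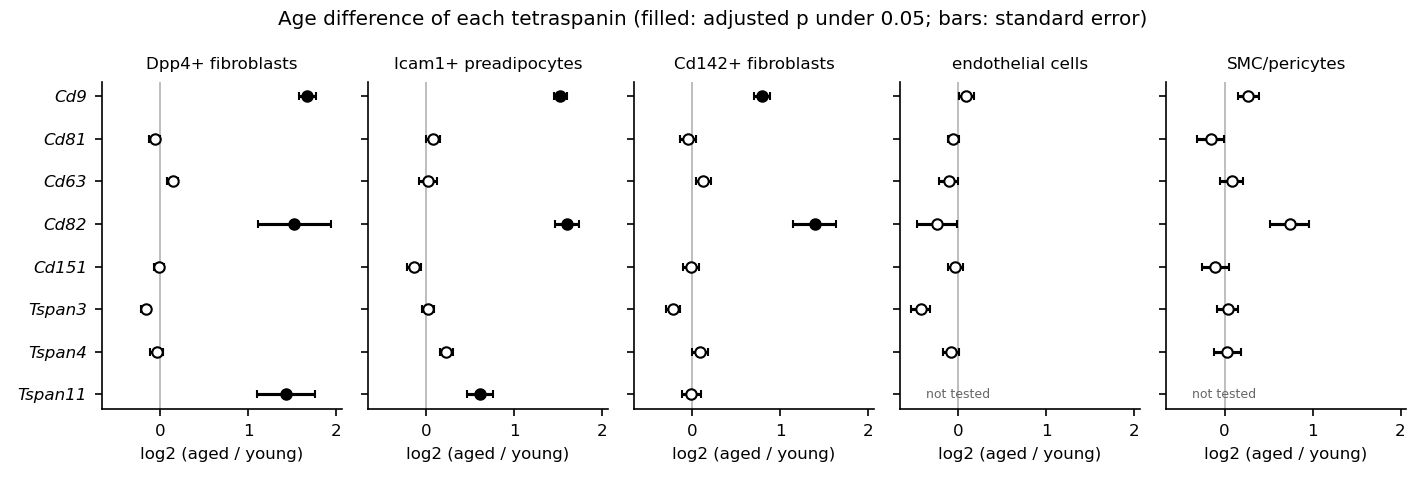
Log2 fold change of aged over young libraries (x axis, with the standard error) for the 8 tetraspanins that could be tested (y axis) in 5 cell classes. Filled points, those with an adjusted p under 0.05, are Cd9 and Cd82 in the 3 ASPC classes and Tspan11 in Dpp4+ fibroblasts and Icam1+ preadipocytes, and the other points lie near 0 or are open.

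Cd9, which encodes a partner of integrins and of the immunoglobulin protein EWI-2 and is a common marker of extracellular vesicles, rose with age in the 3 ASPC classes. In Dpp4+ fibroblasts its level was 49.5 CPM in Young TN, 63.3 in Young 3D cold and 60.1 in Young 14D cold, against 202 in Aged TN, 190 in Aged 3D cold and 160 in Aged 14D cold. Every aged library lay far above every young one. The mean rose from 57.6 ± 7.24 (SD, n = 3 libraries) to 184 ± 21.2 CPM (n = 3), a log2 fold change of 1.67 (standard error 0.10, edgeR adjusted p = 7.65e-06). Its log2 difference between the ages was 2.02 in the TN libraries, 1.58 in 3D cold and 1.41 in 14D cold.

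The Dpp4+ class was made of different clusters in different libraries, and only 888 of its 2338 cells in Aged TN came from cluster 0, the largest one. Within cluster 0, Cd9 was at 51.7, 68.3 and 56.9 plain CPM in young TN, 3D and 14D cold and at 239, 214 and 227 in the aged libraries in the same order. Within cluster 2 it was at 44.2, 58.3 and 61.2 in young and 184, 158 and 135 in aged libraries. The ages did not overlap in either cluster.

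In Icam1+ preadipocytes, the cells committed to the adipocyte lineage, Cd9 was at 146 CPM in Young TN, 207 in Young 3D cold and 165 in Young 14D cold. It was at 424 in Aged TN, 550 in Aged 3D cold and 510 in Aged 14D cold. The lowest aged library thus exceeded the highest young library, and the log2 fold change was 1.52 (standard error 0.07, edgeR adjusted p = 4.95e-06).

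In Cd142+ fibroblasts, Cd9 was already high in young mice, with 276 CPM at TN, 414 after 3D and 306 after 14D of cold exposure. The aged libraries had 546, 620 and 535 CPM in the same order. The ages did not overlap, with a log2 fold change of 0.79 (standard error 0.09, edgeR adjusted p = 0.000314). A test of the age effect between classes, fitted on 12 sums with library as a block, gave a difference of -0.89 (standard error 0.10, adjusted p = 0.000624) for Cd142+ against Dpp4+ fibroblasts, where 1.34% of genes were called. It gave -0.72 (standard error 0.09, adjusted p = 0.00159) for Cd142+ fibroblasts against Icam1+ preadipocytes, where 2.08% of genes were called. Between Icam1+ preadipocytes and Dpp4+ fibroblasts the difference was -0.14 (standard error 0.15, adjusted p = 0.705), where 2.49% of genes were called.

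Cd9 did not pass the test for age in the other 2 tested classes. Endothelial cells had 222 to 286 CPM of Cd9 in young and 261 to 284 in aged libraries, a log2 fold change of 0.09 (standard error 0.09, edgeR adjusted p = 0.675). SMC/pericytes had 226 to 289 CPM in young and 276 to 334 in aged libraries, a log2 fold change of 0.27 (standard error 0.12, edgeR adjusted p = 0.479). Immune cells had 77.4 to 204 plain CPM in young and 144 to 453 in aged libraries, and were not tested.

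The order of the classes by their mean Cd9 level, in plain CPM, differed between the ages. In young mice it ran from Dpp4+ fibroblasts (57.2 ± 7.72, SD, n = 3 libraries) through Icam1+ preadipocytes (174 ± 31.4), SMC/pericytes (245 ± 27.5) and endothelial cells (259 ± 30.8) to Cd142+ fibroblasts (333 ± 78.7), and the ranges of the last 3 overlapped. In aged mice it ran from Dpp4+ fibroblasts (185 ± 20.6) through endothelial cells (267 ± 13.6), SMC/pericytes (292 ± 27.3) and Icam1+ preadipocytes (491 ± 51.5) to Cd142+ fibroblasts (563 ± 40.5). There, endothelial cells overlapped SMC/pericytes, and Icam1+ preadipocytes overlapped Cd142+ fibroblasts. Icam1+ preadipocytes lay below endothelial cells in all 3 young and above them in all 3 aged libraries.

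**Figure D3:**
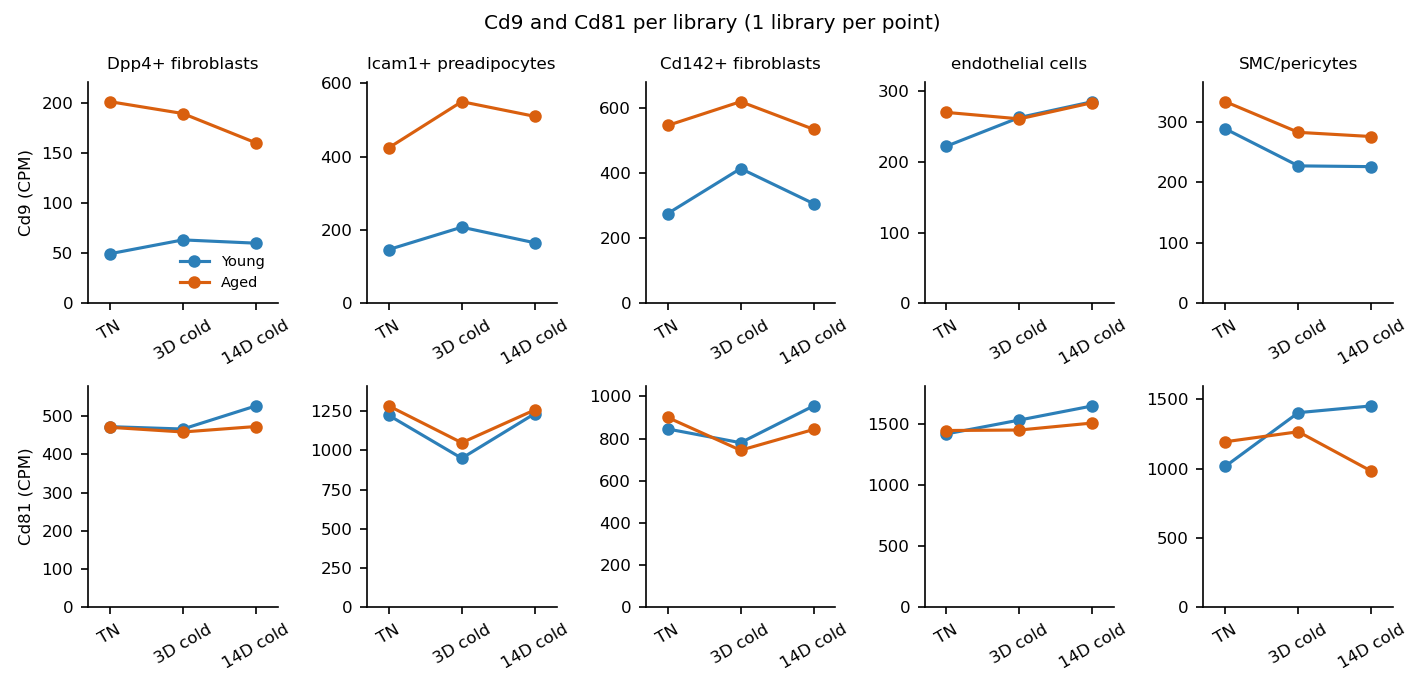
Level of Cd9 (upper row) and Cd81 (lower row) in CPM (y axis, from 0) at TN, 3D cold and 14D cold (x axis) in 5 cell classes, with 1 library per point and a line for each age. The aged Cd9 points lie above all young points in the 3 ASPC classes, for example 160 to 202 against 49.5 to 63.3 CPM in Dpp4+ fibroblasts, while the Cd81 points of both ages overlap in all 5 classes.

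Cells with Cd9 were more common in aged ASPCs, and each held more UMIs. After thinning to 2000 UMIs per cell, which left out 4289 shallower cells, all from Aged TN and Aged 14D cold, Cd9 was found in 7.72%, 10.0% and 8.69% of young Dpp4+ fibroblasts at TN, 3D and 14D cold. It was found in 27.1%, 26.2% and 25.7% of aged Dpp4+ fibroblasts in the same order. In Icam1+ preadipocytes the shares were 21.1%, 29.3% and 25.7% in young and 52.6%, 61.1% and 56.3% in aged libraries, and in Cd142+ fibroblasts 38.5%, 51.4% and 41.4% against 61.0%, 66.9% and 60.8%. In Dpp4+ fibroblasts the 95% intervals by the exact binomial method, a measure of counting error alone, ran from 7.90% to 9.53% in Young 14D cold and from 24.1% to 27.4% in Aged 14D cold. Before thinning, 22.0% to 25.2% of young and 47.9% to 55.2% of aged Dpp4+ fibroblasts had a Cd9 UMI, at a median of 7440 to 9836 UMIs per cell in the young and 6690 to 7268 in the aged libraries.

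The young and aged shares of cells with Cd9 did not overlap in these 3 classes, and in endothelial cells they did (24.4% to 28.1% in young, 22.9% to 28.9% in aged libraries). Among positive Icam1+ preadipocytes the mean number of Cd9 UMIs went from 1.36 to 1.40 in young to 1.60 to 1.78 in aged libraries, and the share with 3 or more went from 1.50% to 2.25% up to 7.58% to 12.2%. A cell with no Cd9 UMI at this depth may still express the gene, and 38.9% of Icam1+ preadipocytes in Aged 3D cold, the lowest share of that class, had 0.

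**Figure D4:**
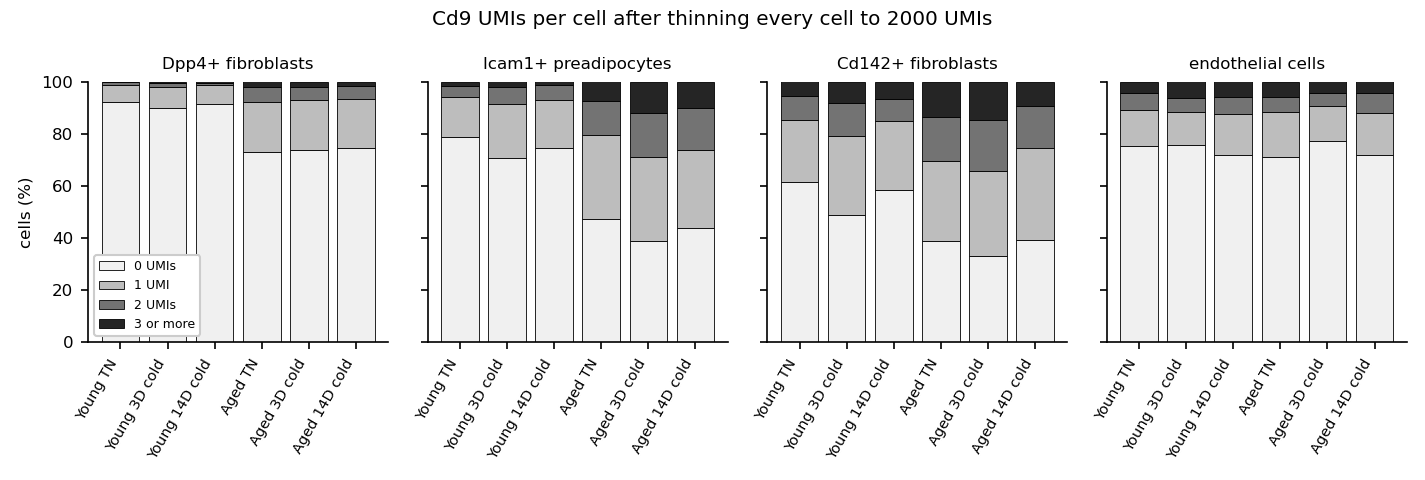
Share of cells in percent (y axis) with 0, 1, 2 or at least 3 UMIs of Cd9 after thinning every cell to 2000 UMIs, in the 6 libraries (x axis) of 4 cell classes. The parts with 1, 2 and at least 3 UMIs are all larger in the aged ASPC libraries, as in Icam1+ preadipocytes where 7.58% to 12.2% of aged and 1.50% to 2.25% of young cells had at least 3, and show no such shift in endothelial cells.

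Over all members, the young and aged shares of cells with a UMI failed to overlap in 12 of 50 pairs of a member and a class. With 3 libraries of each age the exact two-sided permutation test cannot go below p = 0.1, which is the p of each of these 12 pairs, and adjusted over the 50 pairs it was 0.417. In Dpp4+ fibroblasts 3 of 6 members found in at least 1% of cells did not overlap (Cd9, Cd63 and, lower in aged, Tspan3), where 21.1% of genes did not. In Icam1+ preadipocytes it was 2 of 8 (Cd9 and Cd82) beside 17.9% of genes, and in Cd142+ fibroblasts 3 of 8 (Cd9, Cd82 and, lower in aged, Tspan3) beside 18.8%. In endothelial cells it was 2 of 7 (Cd82 and Tspan3, both lower in aged) beside 13.7%, and in SMC/pericytes 1 of 7 (Cd151, lower in aged) beside 12.3%. The remaining pair was Tspan11 in Dpp4+ fibroblasts, at means of 0.16% of young and 0.45% of aged cells. It lay below 1% of cells, so these shares do not cover it, and no share of all genes stands beside the 12 of 50 as a whole.

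RNA of other cell types was listed beside Cd9, since macrophages and platelets carry the protein. In Dpp4+ fibroblasts the summed level of 11 macrophage genes was 1.69 to 3.81 CPM in young and 1.92 to 5.70 in aged libraries, with 0 of 5 tested genes called, and that of 6 platelet genes was 41.5 to 51.8 and 42.8 to 53.6 CPM with 0 of 3 called. Adipocyte RNA was higher in aged Dpp4+ fibroblasts, at 8.86 to 16.9 against 18.3 to 28.1 CPM with 5 of 7 genes higher, and red blood cell RNA too, at 3.62 to 59.3 against 57.1 to 228 CPM with 4 of 4 higher. In Icam1+ preadipocytes 3 of 6 adipocyte genes were higher and 1 of 2 platelet genes lower in aged mice, with 0 of 3 macrophage and 0 of 4 red blood cell genes called. In Cd142+ fibroblasts 0 of 9 tested genes of the 4 lists were called. The part of adipocyte and red blood cell RNA in the Cd9 difference was not tested. Among 10 genes of the dissociation response, the Dpp4+ class had 2 called upward with age and 1 downward. Each of the other 2 ASPC classes had 1 upward and 1 downward. The background for every list here is the share of all tested genes called for age. Upward and downward calls made up 9.08% and 8.53% in the Dpp4+ class. They made up 7.13% and 5.48% in the Icam1+ class and 5.26% and 5.16% in the Cd142+ class. No list was tested against these shares. The antisense gene Gm28809, which lies inside the span of Cd9 on the other strand, was at 0.36 to 0.56 CPM in young and 0.73 to 2.06 in aged Icam1+ preadipocytes (log2 fold change 1.63, edgeR adjusted p = 0.0120), and was tested in no other class.

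Cd81, whose protein binds CD9 and EWI-2, was among the most broadly found members and did not pass the test for age in any class. In Dpp4+ fibroblasts it was at 473, 467 and 527 CPM in young and 471, 459 and 473 in aged libraries at TN, 3D and 14D cold, a log2 fold change of -0.06 (standard error 0.06, edgeR adjusted p = 0.536). In Icam1+ preadipocytes the values were 1224, 950 and 1234 in young and 1284, 1049 and 1258 CPM in aged libraries, a log2 fold change of 0.08 (standard error 0.08, edgeR adjusted p = 0.583). Both 3D cold libraries were the lowest of their age in Icam1+ preadipocytes and in Cd142+ fibroblasts, and the test for temperature gave adjusted p = 0.117 and 0.431 there. By mean level in plain CPM, Cd81 ran in young mice from immune cells (345 ± 25.7, SD, n = 3 libraries) through Dpp4+ fibroblasts (484 ± 20.3), Cd142+ fibroblasts (861 ± 75.03), Icam1+ preadipocytes (1141 ± 163), SMC/pericytes (1288 ± 271) and endothelial cells (1546 ± 106) to Schwann cells (1675 ± 73.0), with Icam1+ preadipocytes and SMC/pericytes, SMC/pericytes and endothelial cells, and endothelial and Schwann cells overlapping. After thinning it was found in 91.8% to 93.4% of endothelial cells and 59.7% to 62.6% of Dpp4+ fibroblasts.

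Cd151, whose protein binds laminin-binding integrins, was at 37.6 to 46.8 CPM in young and 38.4 to 45.7 in aged Dpp4+ fibroblasts. Its log2 fold change with age lay between -0.14 and -0.02 over the 5 classes, with 0 called. It moved with temperature in Icam1+ preadipocytes, from 32.2 CPM at TN to 40.2 after 3D and 47.6 after 14D of cold exposure in young mice and from 30.5 to 32.6 and 46.5 in aged mice. At both ages 14D cold was the highest and TN the lowest library, with log2 differences from TN of 0.21 after 3 and 0.58 after 14 days (edgeR adjusted p = 0.0199 for temperature), and the adjusted p was 0.0665 without Aged 14D cold. The difference after 3 days was 0.09 when Young 3D cold was left out and 0.33 when Aged 3D cold was, and 0.06 after thinning. The log2 difference of 14D cold from TN was 0.29 in Dpp4+ and 0.42 in Cd142+ fibroblasts, where temperature gave adjusted p of 0.0677 and 0.0952. Cd151 was higher in endothelial cells (194 ± 15.2, SD, n = 3 young libraries, plain CPM) and SMC/pericytes (171 ± 34.0) than in the 3 ASPC classes, whose libraries lay between 31.2 and 53.0.

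Cd63, a tetraspanin of late endosomes and lysosomes that is sorted into exosomes and binds TIMP1, was high in Icam1+ preadipocytes, at 1971 to 2005 CPM in young and 1809 to 2197 in aged libraries, and after thinning was found in 95.9% to 97.0% of them. Its log2 fold change with age was 0.02 (standard error 0.10) there, 0.14 (0.07) in Dpp4+ and 0.13 (0.08) in Cd142+ fibroblasts, none of them past the threshold by edgeR's test (adjusted p = 0.926, 0.179 and 0.391). Within cluster 0 of the Dpp4+ class alone, a fit chosen after the data were seen, it was 0.29 with an adjusted p of 0.0147.

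Cd82, known as a suppressor of metastasis that binds integrins and other tetraspanins, was scarce. It was called higher with age in the ASPCs, on very few UMIs in Dpp4+ fibroblasts. In Icam1+ preadipocytes it was at 8.24 CPM in Young TN, 6.41 in Young 3D cold and 4.66 in Young 14D cold, and at 22.0, 17.1 and 19.4 in Aged TN, 3D and 14D cold. The ages did not overlap, and the log2 fold change was 1.60 (standard error 0.14, edgeR adjusted p = 0.000109) from 400 UMIs in 6518 young and 937 in 6589 aged cells. Thinned to 2000 UMIs, 0.864% to 1.53% of young and 3.16% to 4.38% of aged Icam1+ preadipocytes had a UMI.

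In Cd142+ fibroblasts, Cd82 was at 4.55, 3.73 and 2.09 CPM in young and 15.4, 6.64 and 6.25 in aged libraries at TN, 3D and 14D cold. Aged TN was more than 2 times any other library, and the log2 fold change of 1.39 (standard error 0.24, edgeR adjusted p = 0.00356) fell to 1.12 without Aged TN and 1.11 without Young TN, with adjusted p of 0.0534 and 0.0597. In Dpp4+ fibroblasts only 31 young and 53 aged UMIs were counted in 12293 and 9186 cells, at 0.21 to 0.45 and 0.56 to 1.33 CPM. After thinning, 0.0511% to 0.345% of these cells had a UMI, and the ages overlapped. That is below the 0.45% at which UMIs of Cd53 and Cd37 in ASPCs are read as background. The log2 fold change of 1.52 (standard error 0.41, edgeR adjusted p = 0.0326) there had an adjusted p of 0.140 with DESeq2, of 0.200 without Young TN and of 0.210 without Aged TN, where the change was 0.97 and 0.98, and of 0.0675 and 0.0598 without Young or Aged 3D cold.

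SMC/pericytes held 14.8 to 16.4 CPM of Cd82 in young and 20.2 to 30.1 in aged libraries, which did not overlap, with a log2 fold change of 0.74 (standard error 0.22, edgeR adjusted p = 0.307). Thinned to 2000 UMIs, 4.23 ± 0.67% (SD, n = 3 libraries) of young and 3.69 ± 0.35% of aged SMC/pericytes had a UMI. At this equal depth the ages overlapped and the aged mean was the lower. Endothelial cells held 11.7 to 18.1 and 9.79 to 13.6 CPM (log2 fold change -0.25, standard error 0.23, edgeR adjusted p = 0.659). The age effect on Cd82 did not pass the test of a difference between any pair of ASPC classes, with differences between -0.13 and 0.14 and adjusted p of 0.921 to 0.967.

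Tspan11 was highest in Cd142+ fibroblasts and among the leading genes of their cluster, although clustering did not use it, and in endothelial cells it was at 1.60 to 5.05 plain CPM. In Cd142+ fibroblasts it was at 43.1, 47.8 and 64.4 CPM in young and 54.1, 42.7 and 55.9 in aged libraries at TN, 3D and 14D cold, and the ages overlapped (log2 fold change -0.01, standard error 0.11, edgeR adjusted p = 0.958). In Dpp4+ fibroblasts, where it was scarce, it was at 0.58, 0.94 and 1.13 CPM in young and 3.35, 1.33 and 2.76 in aged libraries, from 92 young and 150 aged UMIs. Each aged library was above each young one, with a log2 fold change of 1.43 (standard error 0.33, edgeR adjusted p = 0.0153).

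This rise in Dpp4+ fibroblasts rested on few UMIs. Without Aged TN it was 0.93 (edgeR adjusted p = 0.0580), and in cluster 2 alone 0.80 (adjusted p = 0.256). In Icam1+ preadipocytes Tspan11 was at 8.19, 4.20 and 7.67 CPM in young and 9.59, 7.91 and 13.0 in aged libraries, which overlapped, with a log2 fold change of 0.61 (standard error 0.15, edgeR adjusted p = 0.0272). The adjusted p there was 0.139 or 0.0701 when Young 3D or 14D cold was left out, 0.129 or 0.103 when Aged 3D or 14D cold was, 0.0824 with DESeq2 and 0.549 after thinning, where the change was 0.29. The age effect on Tspan11 was smaller in Cd142+ than in Dpp4+ fibroblasts, with a difference of -1.45 (standard error 0.24, adjusted p = 0.00836).

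Tspan3, a broadly found tetraspanin, passed the test for age in 0 of 5 classes. In endothelial cells it was at 65.1, 68.1 and 63.8 CPM in young and 42.1, 51.0 and 55.1 in aged libraries, and the ages did not overlap (log2 fold change -0.43, standard error 0.11, edgeR adjusted p = 0.0901). By the same test the log2 fold change was -0.17 in Dpp4+ (standard error 0.05, adjusted p = 0.0676) and -0.22 in Cd142+ fibroblasts (standard error 0.08, adjusted p = 0.103), with every aged library below every young one in both. In Icam1+ preadipocytes (0.02, adjusted p = 0.882) and SMC/pericytes (0.03, adjusted p = 0.955) the ages overlapped.

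Tspan4, whose protein drives the formation of migrasomes, vesicles left behind on the retraction fibres of moving cells, was called for temperature in the 3 ASPC classes and for age in none. It was highest after 3D of cold exposure in 5 of 5 tested classes in young and in 5 of 5 in aged mice. The classes of an age come from the same libraries, so they are not separate observations. In Dpp4+ fibroblasts it was at 45.0 CPM in Young TN, 73.3 in Young 3D cold and 54.2 in Young 14D cold, and at 46.2, 77.6 and 45.6 in the aged libraries in the same order. Both 3D cold libraries thus lay above the other 4. The level after 3 days exceeded that at TN 1.63 times in young and 1.68 times in aged mice, and the log2 difference in the fit of both ages was 0.73 after 3 and 0.14 after 14 days (edgeR adjusted p = 0.00365 for temperature).

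The other tested classes showed the same order of the 3D cold library. The adjusted p given for each is that of the test for temperature, which took both cold groups together. The difference of 3D cold from TN was not tested by itself. In Icam1+ preadipocytes Tspan4 was at 48.6, 65.5 and 52.2 CPM in young and 59.8, 81.6 and 54.0 in aged libraries (log2 difference of 3D cold from TN 0.44, edgeR adjusted p = 0.0231), and the adjusted p was 0.201 when Aged 3D cold was left out and 0.0538 when Young 3D cold was. Cd142+ fibroblasts held 55.1, 77.7 and 60.4 CPM in young and 58.2, 92.8 and 55.3 in aged libraries (log2 difference 0.59, edgeR adjusted p = 0.0199), with an adjusted p of 0.0512 without Young TN, 0.278 without Aged 3D cold, 0.0964 with DESeq2 and 0.145 after thinning. Endothelial cells had 71.5, 126 and 92.6 CPM in young and 75.4, 112 and 83.5 in aged libraries (log2 difference 0.68, edgeR adjusted p = 0.0578), and SMC/pericytes 48.8, 93.7 and 65.7 against 58.1, 103 and 49.5 CPM (0.88, adjusted p = 0.139). Schwann cells, with 73 UMIs of Tspan4 in all, had 65.0, 53.2 and 55.1 plain CPM in young and 41.0, 22.4 and 41.8 in aged libraries and were not highest after 3D. Immune cells, with 100 UMIs in all, had 39.1, 33.6 and 43.0 plain CPM in young and 18.9, 55.6 and 37.75 in aged libraries. They were lowest after 3D in young and highest after 3D in aged mice.

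The age effect on Tspan4 was not past the threshold in any class, with log2 fold changes between -0.08 and 0.23. The 3′ end of Tspan4 overlaps that of Chid1, which lies on the other strand, and whether counting used strand was not given in the sources used here. Chid1 went the other way in Icam1+ preadipocytes, at 24.7, 16.2 and 23.8 CPM in young and 16.9, 11.7 and 17.1 in aged libraries at TN, 3D and 14D cold (log2 difference of 3D cold from TN -0.57, edgeR adjusted p = 0.0186 for temperature). Each 3D cold group was 1 library, so the cold exposure of those mice and the handling of that library cannot be told apart.

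**Figure D5:**
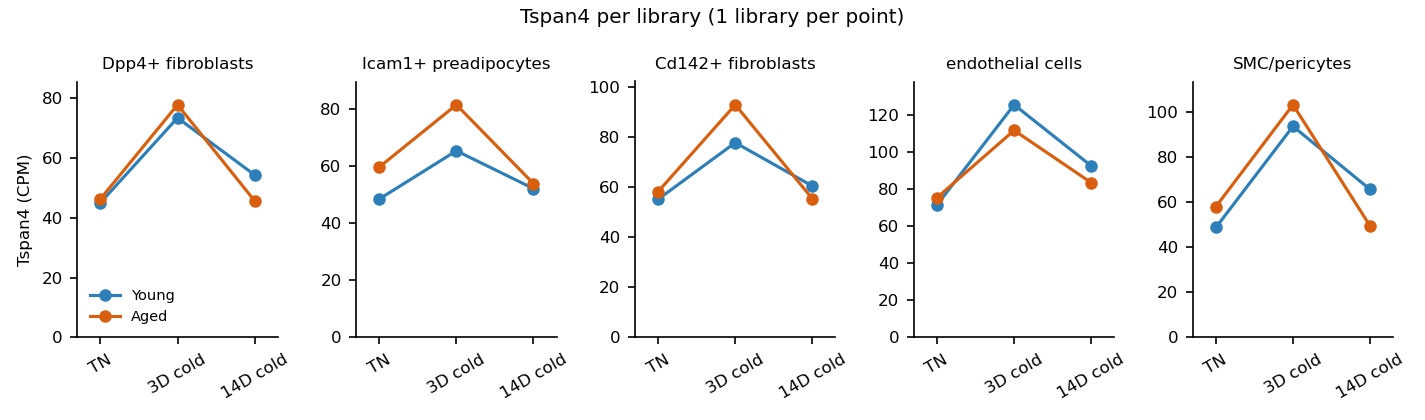
Level of Tspan4 in CPM (y axis, from 0) at TN, 3D cold and 14D cold (x axis) in 5 cell classes, with 1 library per point and a line for each age. The 3D cold point is the highest of its line in 5 of 5 classes at both ages, for example 73.3 and 77.6 CPM against 45.0 to 54.2 in the other libraries of Dpp4+ fibroblasts.

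Temperature was called for 5 pairs of a member and a class in all. In Dpp4+ fibroblasts 1 of 8 members was called (Tspan4), beside 6.22% of genes, in Icam1+ preadipocytes 3 of 8 (Cd9, Cd151 and Tspan4), beside 5.86%, and in Cd142+ fibroblasts 1 of 8 (Tspan4), beside 2.38%. In endothelial cells and SMC/pericytes 0 of 7 were called, beside 0.568% and 0.125% of genes. Cd9 in Icam1+ preadipocytes was higher after 3D than at TN at both ages, with a log2 difference of 0.44. The test for temperature, which took both cold groups together, gave an edgeR adjusted p of 0.0451. The log2 difference was 0.53 when Aged 3D cold was left out and 0.36 when Young 3D cold was, and temperature was called in neither fit. The adjusted p for temperature was 0.0950 at clustering resolution 0.3 and 0.0863 at resolution 1.0.

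Cd53 and Cd37, tetraspanins of leukocytes, passed the filter on low counts in 0 of 5 classes. In immune cells Cd53 was at 202 to 233 plain CPM in young and 215 to 283 in aged libraries, and Cd37 at 168 to 266 and 103 to 160. There, after thinning, Cd53 was found in 40.4% to 42.6% of young and 32.7% to 34.4% of aged cells and Cd37 in 31.9% to 39.4% and 22.4% to 33.9%, in 32 to 71 immune cells per library. In the 3 ASPC classes each had 0 to 15 UMIs per age in all, in at most 0.102% of thinned cells of a library, and in endothelial cells, which should lack both, at most 0.451%. At or below that share, the UMIs in ASPCs are read as background. In 3614 thinned Dpp4+ fibroblasts of Young TN both were found in 0, which allows a share of up to 0.0830% of cells with a UMI at this depth and does not limit the share of cells that express either gene.

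The other genes of the tetraspanin web were read from lists. Of 21 other tetraspanins, the Dpp4+, Icam1+ and Cd142+ classes had 13, 13 and 12 tested, of which 1, 1 and 1 were higher and 1, 1 and 0 lower in aged mice, all at a mean under 20 CPM, beside the shares of all genes given above (9.08% higher and 8.53% lower in Dpp4+ fibroblasts, 7.13% and 5.48% in Icam1+ preadipocytes, 5.26% and 5.16% in Cd142+ fibroblasts), with medians of -0.05, -0.12 and -0.04. Of 13 partners, 11 were tested in each. In Dpp4+ fibroblasts 4 were higher and 3 lower, beside 9.08% and 8.53% of all genes. Among them Cd44, the hyaluronan receptor, rose from 42.3 ± 6.30 (SD, n = 3 libraries) to 55.5 ± 0.95 CPM (log2 fold change 0.40, standard error 0.08, edgeR adjusted p = 0.00615). Mmp14, a membrane metalloproteinase, rose by 0.34 and Igsf8, which encodes the direct CD9 and CD81 partner EWI-2, by 0.34 on the log2 scale, while Hbegf, a growth factor precursor that binds CD9, fell by 0.32.

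In Icam1+ preadipocytes 0 partners were higher and 2 lower, beside 7.13% and 5.48% of all genes, with Igsf8 at a log2 fold change of -0.26, the opposite sign to that in Dpp4+ fibroblasts. In Cd142+ fibroblasts 2 were higher, Cd44 (0.30) and Mmp14 (0.29), and 2 lower, Timp1 (-0.50), the ligand of CD63, and Ptgfrn (-0.35), the other EWI partner of CD9 and CD81, beside 5.26% and 5.16% of all genes. Of 14 genes of extracellular vesicle formation, 1 of 12 tested was higher in Dpp4+ fibroblasts (Flot1, 0.19), where 9.08% of all genes were, and 0 of 11 were called in either of the other ASPC classes by edgeR's test. In endothelial cells and SMC/pericytes 0 members of the 3 lists were called.

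The genes whose log2 CPM followed that of Cd9 most closely over the 30 sums of 5 classes and 6 libraries, among 5948 genes, were Enpp5 (Pearson's r 0.86), Mlana (0.83), Pltp, a phospholipid transfer protein (0.82), Osmr, the oncostatin M receptor (0.82), and Agmo, which cleaves ether lipids (0.78). For Cd81 they were the Wnt co-receptor Lrp5 (0.96), the semaphorin receptor Plxnd1 (0.96), Dhrs3 (0.95), Spry1 (0.95) and Sept9 (0.95). The 30 sums share 6 libraries and differ in depth and class, and these values are descriptions across sums that are not independent.

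The genes lie at separate loci, but Cd151 and Tspan4 lie close together on the plus strand of chromosome 7 of GRCm38. Their spans are 141467392 to 141471473 and 141475240 to 141493427, and genes between them were not looked for. Cd81 lies at 143052739 to 143067934 on the same strand of chromosome 7. Cd9 and Tspan11 lie on chromosome 6, at 125460266 to 125494791 on the minus and 127887589 to 127953977 on the plus strand, and Cd82 on chromosome 2 at 93419111 to 93463140 on the minus strand. Cd151 and Tspan4 differed in their order over temperature, with Cd151 highest after 14D and Tspan4 after 3D of cold exposure in Icam1+ preadipocytes at both ages.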

How the data were processed

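Single-cell suspensions of CD45-depleted iWAT stromal vascular cells were profiled with 10x Genomics 3′ v3.1 chemistry, and the authors deposited raw UMI counts per gene and barcode. The submitters' processing notes name Cell Ranger, R 4.1.1, Seurat and mm10. Groups came from the sample labels, with 1 library per age and temperature and 52068837 to 88508349 UMIs per library. No library columns of other samples were present.

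Barcodes with more than 200 genes and within 3 median absolute deviations were kept. Counts were scaled to 10000 per cell, and 6000 variable genes, without 113 marker, tetraspanin and other genes, gave 15 principal components, 20 neighbours and Leiden clusters at resolution 0.5 (leidenalg 0.10.2). A cluster was named where at least 3 markers and 50% of a list were found, unless 75% of its cells came from 1 library. The unweighted neighbour graph and this naming rule were chosen after clusters had been seen. Cells with a high doublet score (5230) were kept in the main fits and left out in an alternative.

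UMIs were summed by class and library. edgeR 4.0.16 (R 4.3.3) fitted age and temperature with TMM factors, filterByExpr and 2 residual degrees of freedom in its quasi-likelihood test, with Benjamini-Hochberg adjustment over all genes and a threshold of 0.05. Detection was compared after thinning to 2000 UMIs with exact two-sided permutation tests. On simulated data with 200 genes changed by a log2 fold of 1, the test recovered 89.5% in Dpp4+ fibroblasts (13079 genes), 90.5% in Icam1+ preadipocytes (12499 genes), 82.5% in Cd142+ fibroblasts (11272 genes), 86% in endothelial cells (11085 genes) and 75% in SMC/pericytes (9608 genes). The simulated counts were drawn with the dispersions of the fit and held no temperature difference, and recovery in the real libraries was not measured. Alternatives were DESeq2 1.42.0, other filters and terms, thinned counts, other cell limits and resolutions, and leaving out each library. Fits within cluster 0 or 2 alone were added after the data had been seen. The members and lists were chosen with earlier results of these data known. All members were described. Genes of the lists of other tetraspanins, partners and vesicle formation were named where called for age at a mean of at least 20 CPM. At most 4 were named per list and class, those with the largest absolute log2 fold change.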

Additional observations from a re-analysis of the deposited data

Results flagged for a closer look

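The age effect on Cd9 differed between ASPC classes, by -0.89 on the log2 scale between Cd142+ and Dpp4+ fibroblasts and by -0.72 between Cd142+ fibroblasts and Icam1+ preadipocytes, in edgeR's test of the difference itself. The age effect on Tspan11 differed by -1.45 between Cd142+ and Dpp4+ fibroblasts in the same test. The Dpp4+ side rested on 92 young and 150 aged UMIs, found in 0.083% to 0.604% of thinned cells.

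Cd9 was also higher in aged mice in both clusters left unnamed, which enter no comparison above. In the larger one, 5883 cells with a high doublet score in 30.6%, it was at 161 to 209 plain CPM in young and 496 to 518 in aged libraries, with means of 178 ± 26.8 (SD, n = 3 libraries) and 504 ± 12.2. In the shallow cluster of 4794 cells, 3782 of them from Aged 14D cold, it was at 68.6 to 195 in young and 355 to 632 in aged libraries, with means of 153 ± 72.8 and 533 ± 155. Neither difference was tested.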

How the results depend on the processing

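No paired analysis was possible because the labels give no replicate numbers to match, other than the matching of young and aged libraries by temperature that the fit for age already held as a term. Cd9 stayed past the threshold for age in 18 of 18 alternatives in Dpp4+ fibroblasts (log2 fold change 1.49 to 1.93), 16 of 16 in Icam1+ preadipocytes (1.47 to 1.58) and 16 of 16 in Cd142+ fibroblasts (0.69 to 0.90), and Cd82 in 16 of 16, 13 of 16 and 8 of 16 in Icam1+, Cd142+ and Dpp4+ cells. The log2 difference of Tspan11 between 3D cold and TN in Cd142+ fibroblasts, -0.09 with all libraries, turned to 0.16 without Aged TN. This difference was not tested by itself, since the test for temperature took both cold groups together. It ran from -0.35 to 0.16 when 1 library was left out and from -0.50 to 0.16 over all alternatives. Values near 0 that were not called also changed sign, among them the age effect on Cd9 in endothelial cells (-0.13 to 0.18) and on Tspan4 in Dpp4+ fibroblasts (-0.11 to 0.12). The cause of these changes was not tested.

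Genes called for age numbered 2304, 1576, 1175, 198 and 16 in Dpp4+, Icam1+, Cd142+, endothelial and SMC/pericyte cells. With DESeq2 the first 4 were 1364, 845, 457 and 69, with no temperature term 739, 299, 314, 45 and 0 (853 at an unadjusted p under 0.05 by edgeR), and after thinning the first 4 were 1355, 979, 546 and 106. With no low-count filter Icam1+, endothelial and SMC/pericyte cells gave 2374, 799 and 223. Without high doublet scores endothelial cells gave 105 and SMC/pericytes 9. Cluster 2 alone gave 1208, resolution 0.3 gave 300 in Cd142+ and resolution 1.0 gave 8 in SMC/pericytes, and marker gates gave 26 in endothelial cells and 0 in SMC/pericytes (759 unadjusted).

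Genes called for temperature numbered 813, 732, 268, 63 and 12. With no filter they were 2412, 2108, 904, 607 and 447, and with no age term 0, 0, 0, 0 and 1 by edgeR (978, 978, 465 and 581 unadjusted in the first 4). Cluster 0 and 2 alone gave 511 and 469, resolution 0.3 gave 461 in Icam1+ and 0 (1205 unadjusted) in Cd142+ cells, DESeq2 gave 154 in Cd142+ and 23 in SMC/pericytes, thinning gave 141 in Cd142+ and 112 in endothelial cells, gates gave 0 in SMC/pericytes (640 unadjusted), and leaving out high doublet scores gave 103 there.

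Tetraspanins higher in aged Dpp4+ fibroblasts were 1 with no temperature term, after thinning or in cluster 2 alone, and in Cd142+ fibroblasts 1 with no temperature term, and 1 was lower in endothelial cells with no filter. Tetraspanins called for temperature were 2, 6, 5, 1 and 1 with no filter, and 0 in the 3 ASPC classes with no age term. In Cd142+ fibroblasts they were 0 with DESeq2, thinning or resolution 0.3 and 2 with gates, and in endothelial cells 1 at resolution 1.0 or with fixed cell limits. Genes whose age effect differed between classes were 171, 99 and 135 after thinning, beside 330, 168 and 249. Without thinning, shares of cells did not overlap in 23 pairs, beside 12. The share of all genes was computed after thinning only, for genes in at least 1% of cells, so none stands beside the 23 or beside the 12 as a whole. Without thinning, detection also follows depth. The median UMIs per kept cell were 7652 to 9904 in young and 2742 to 6912 in aged libraries.

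Leaving out each library gave 1521 to 1901, 1014 to 1838, 809 to 1080, 24 to 385 and 0 to 176 genes for age, and 482 to 1456, 559 to 1482, 200 to 525, 11 to 408 and 0 to 554 for temperature. It gave 1 to 3, 2 to 3, 1 to 2, 0 and 0 tetraspanins higher in aged mice, and 1, 1 to 4, 0 to 2, 0 to 1 and 0 to 1 for temperature. Recovery of changes smaller than a log2 fold of 1 was not tested on simulated data.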
